A study of Mus musculus with 18 samples.

Results

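The genes described here carry the signals of interleukin-22 (IL-22) and of the interleukin-6 (IL-6) family of cytokines to the transcription factor Stat3 in the colon epithelium. They are the receptor chains Il22ra1, Il10rb, Il6ra, Il6st and Osmr, the transcription factor Stat3, the inhibitor Socs3 and the NF-kB cofactor Bcl3. All probes whose gene symbol in the deposited table is 1 of these 8 were taken, which gave 16 probes among 45281, and 8 genes among 31165. Of these, 12 were detected on enough arrays to be tested, and each of the 8 genes had at least 1 tested probe. Where a gene had several, its value below is that of the brightest tested probe, and the other probes are given beside it.

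IL-22 is made by lymphoid cells and acts on epithelium through a receptor of Il22ra1 and Il10rb, the latter also a chain of the IL-10 receptor. IL-6 binds Il6ra, oncostatin M binds Osmr, and both signal together with the shared chain gp130, encoded by Il6st. The receptors activate Jak kinases, which phosphorylate Stat3 so that it enters the nucleus. Stat3 induces Socs3, which binds gp130 and Jak kinases and shuts the signal down. Bcl3 is a nuclear IkB protein that binds the p50 and p52 subunits of NF-kB. In the gut this pathway is known for epithelial repair and for the induction of antimicrobial lectins such as Reg3b and Reg3g. The arrays measured mRNA, and neither receptor protein nor phosphorylated Stat3.

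The RNA came from colon epithelial cells of mice, sorted by flow cytometry as EpCAM positive and negative for CD45, CD3 and F4/80. Naive_WT and Naive_KO were untreated wild-type and Mbd2KO mice, and DSS_WT and DSS_KO were mice of these genotypes given 2% dextran sulphate sodium (DSS), which damages the colon lining and causes colitis, in the drinking water. Mbd2KO mice lack the methyl-CpG-binding protein Mbd2 in the whole body, so that every cell type of the colon lacked it. By the paper, the mice were housed with littermate controls wherever possible, and were adult and matched for age and sex. A replicate could pool several mice, and each group had 4 samples after repeat arrays were averaged.

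Illumina MouseWG-6 BeadChips read each transcript with probes of 50 bases. The sequences below show the first 30 bases of the probes on which the results turned, those of Osmr and Socs3 because these genes changed most, and those of Stat3 and Il6ra because probes of the same gene gave different values. The deposited file places the Osmr probe at chr15:6761206-6761255 and the Socs3 probe at chr11:117827500-117827549, on the minus strand of a build that it does not name. Each Stat3 probe, and Il6ra probe 1, is placed in separate blocks, as a probe across a splice junction would be. They span chr11:100759790-100759939, chr11:100759931-100760015 and chr11:100756119-100756386 for Stat3 and chr3:89681795-89682779 for Il6ra.
Osmr probe: ccttcctcttaatgcttgtcacattgcaga
Socs3 probe: ccccactcaggccttcgaggctgtctgaag
Stat3 probe 1: ccttgctaatatccacatagaagctaggac
Stat3 probe 2: cggggttggttgttagacaagtgcctcctg
Stat3 probe 3: ccctgcctcaggaccttgtgtcgagaggga
Il6ra probe 1: ccccacacaggtctctgttgaagactctgc
Il6ra probe 2: ctactgtatgaaccctcactgcccaccctg

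The 250 bases before the RefSeq start of Socs3 are shown because Socs3 is the textbook target of Stat3 among these genes. They lie at chr11:117969367-117969616 of GRCm38.p6, minus strand. Capitals mark the only match to TTCNNNGAA, the core motif of Stat factors, which reads the same on both strands and here begins at position -154 from the start.
Socs3 promoter: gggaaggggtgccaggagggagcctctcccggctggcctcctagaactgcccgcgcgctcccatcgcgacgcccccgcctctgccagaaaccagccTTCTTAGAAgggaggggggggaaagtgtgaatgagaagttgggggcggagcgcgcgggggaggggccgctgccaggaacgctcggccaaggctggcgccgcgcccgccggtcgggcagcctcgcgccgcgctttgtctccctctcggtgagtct
RefSeq start windows were given for 7 of the 8 genes, all but Il10rb. Among these 7, Socs3 alone held the motif, which occurred in 7.02% of all 32851 windows of this length. A match describes letters in this window and was not read as a binding site.

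Between 18851 and 20618 probes were detected per array. Mbd2 had 1 probe, which was detected on none of the 9 WT and none of the 9 Mbd2KO arrays, so the knockout could not be checked from these data. All 13 epithelial markers were detected in every group, with a summed signal of 105651 to 131310 over all samples. Of the 13, 1 was lower with DSS at an adjusted p under 0.05 by limma in each genotype (10.5% of all probes passed in WT and 9.42% in Mbd2KO). These were Cdh1 in WT (-0.37, adjusted p = 0.0378) and Car4 in Mbd2KO (-1.59, adjusted p = 0.0128). Markers of other cell types moved with DSS in spite of the sort. The summed signal of 11 tested myeloid markers was 1500 to 2055 in Naive_WT against 2701 to 5549 in DSS_WT, and 1752 to 3453 in Naive_KO against 4697 to 5094 in DSS_KO. That of 10 fibroblast markers was 3494 to 6830 in Naive_WT against 6947 to 8440 in DSS_WT, and 3420 to 4470 in Naive_KO against 4770 to 5824 in DSS_KO. Of the myeloid list, 10 of 11 tested genes were higher with DSS at an adjusted p under 0.05 in each genotype, while Itgam and Itgax were detected on no array and no probe of Ptprc, which encodes the sort marker CD45, on more than 3. Of the fibroblast list, 7 of 10 genes were higher with DSS in WT and 0 of 10 in Mbd2KO, where 3 of 10 reached an unadjusted p under 0.05 by limma. The part of these cells in the changes below was not tested.

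**Figure D1:**
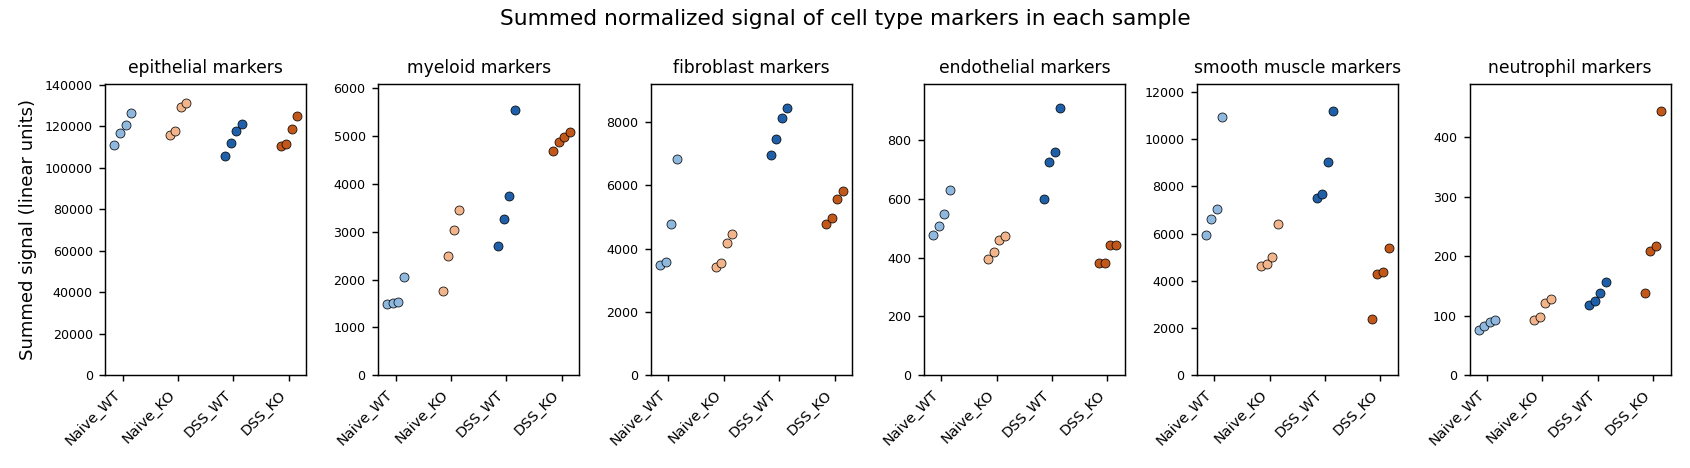
Summed normalized signal (linear units, y axis from 0) of the tested markers of 6 cell types in each of the 16 samples, by group; each point is 1 sample. Epithelial markers overlap between all groups, myeloid markers are higher with DSS in each genotype, and fibroblast and endothelial markers are highest in DSS_WT.

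With DSS the receptor chain Osmr, the inhibitor Socs3 and Stat3 itself rose in the sorted cells of both genotypes, Stat3 by 3 of 3 probes in WT and 1 of 3 in Mbd2KO, and the shared chain Il6st rose in WT. Osmr mRNA was 2.19-fold higher in DSS_WT than in Naive_WT and 2.01-fold higher in DSS_KO than in Naive_KO. Socs3 rose 1.88-fold in either genotype. Il10rb and Il22ra1, the chains of the IL-22 receptor, did not pass the test in either, except Il10rb in Mbd2KO when arrays were scaled to a common median (0.50, adjusted p = 0.0345). In bulk samples, fewer cells of a type and less RNA per cell cannot be told apart.

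Following the thresholds of the study's methods, called genes had a log2 fold change of at least 1 in either direction together with an adjusted p under 0.01, while a looser rule used an adjusted p under 0.05 alone. In WT, DSS called 1 of the 8 genes, Osmr, against 1.74% of all tested probes called and 1.34% called higher. At the looser rule 4 of 8 passed, all higher, against 10.5% of all probes in either direction and 5.71% higher. Naive and DSS samples were fully separate in 5 of 8, against 17% of all probes, and 5 of 8 had an unadjusted p under 0.05, against 26.3%. In Mbd2KO, Osmr was again the 1 called gene, against 1.72% of all probes called and 1.07% called higher. Of the 8, 4 passed the looser rule (against 9.42%), 3 higher (against 4.9%) and 1 lower (against 4.52%). In 5 of 8 the samples were fully separate (15.9% of all probes), and 6 of 8 had an unadjusted p under 0.05 (24.5%). The median log2 fold change of the 8 genes was 0.59 in WT and 0.46 in Mbd2KO, where that of all tested probes was -0.01 and -0.02.

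**Figure D2:**
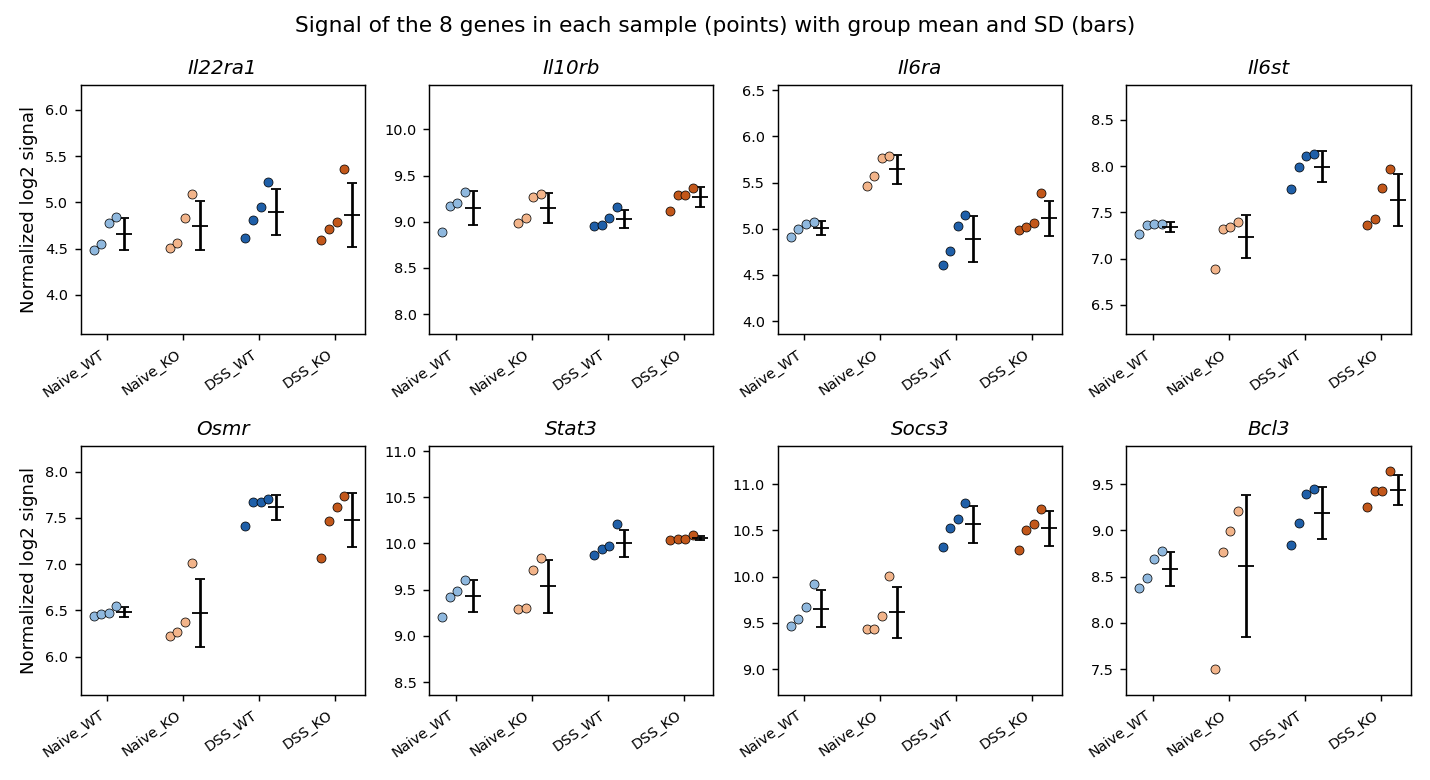
Normalized log2 signal of the 8 genes (brightest tested probe) in each of the 16 samples, with the group mean and SD of 4 samples as bars; each panel spans the same range of log2 units, and levels of different genes are not comparable. Osmr, Socs3 and Stat3 are higher in all DSS samples than in all naive samples of the same genotype, and Il6ra is highest in the 4 Naive_KO samples.

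Osmr, which binds oncostatin M, had log2 signals of 6.44, 6.46, 6.48 and 6.55 in Naive_WT and of 7.41, 7.67, 7.67 and 7.70 in DSS_WT. In Naive_KO the values were 6.22, 6.27, 6.37 and 7.01, and in DSS_KO 7.07, 7.47, 7.62 and 7.73. In Mbd2KO the highest naive sample and the lowest DSS sample thus nearly met, while in WT the groups lay far apart. The log2 fold change was 1.13 (SE 0.167, adjusted p = 0.000698) in WT and 1.00 (SE 0.167, adjusted p = 0.00181) in Mbd2KO. In Mbd2KO it lay at the fold threshold, and the call was lost when replicate 5 (0.96) or 8 (0.92) of DSS_KO, or replicate 14 (0.94), 15 (0.92) or 16 (0.97) of Naive_KO, was left out. The adjusted p of Osmr stayed under 0.05 in all 26 alternatives in each genotype. Another 2 Osmr probes, made to other transcript records, were detected on no array.

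Socs3, the feedback inhibitor, had log2 signals of 9.46, 9.55, 9.67 and 9.92 in Naive_WT and of 10.32, 10.53, 10.62 and 10.79 in DSS_WT. Its values were 9.43, 9.44, 9.57 and 10.01 in Naive_KO and 10.28, 10.50, 10.57 and 10.73 in DSS_KO. All 8 DSS samples were above all 8 naive samples. The log2 fold change was 0.91 in WT (SE 0.152, adjusted p = 0.00160) and 0.91 in Mbd2KO (SE 0.152, adjusted p = 0.00184), under the fold threshold in each. Without replicate 11 of Naive_WT it came to 1.00 in WT and without replicate 13 of Naive_KO to 1.04 in Mbd2KO, and Socs3 was then called.

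Stat3 probe 1 had log2 signals of 9.20, 9.42, 9.49 and 9.61 in Naive_WT and of 9.87, 9.94, 9.98 and 10.21 in DSS_WT. The Naive_KO values were 9.29, 9.30, 9.71 and 9.84, and those of DSS_KO lay close together at 10.04, 10.05, 10.05 and 10.09. Naive and DSS samples did not overlap in either genotype. The log2 fold change was 0.57 in WT (SE 0.134, adjusted p = 0.0135) and 0.52 in Mbd2KO (SE 0.134, adjusted p = 0.0218). The probes differed in Mbd2KO: Stat3 probe 2 changed by 0.45 in WT (adjusted p = 0.0298) and 0.30 in Mbd2KO (adjusted p = 0.141), and Stat3 probe 3 by 0.75 in WT (adjusted p = 0.00748) and 0.30 in Mbd2KO (adjusted p = 0.261). The test of the difference between genotypes gave -0.45 for Stat3 probe 3 (unadjusted p = 0.0618, adjusted p = 0.497), so the DSS effects on Stat3 were not shown to differ. For Stat3 probe 1 the adjusted p rose above 0.05 without replicate 4 of DSS_WT in WT (0.0522), and in Mbd2KO with only the groups compared in the fit (0.0542), or without replicate 8 of DSS_KO (0.0552) or replicate 14 (0.0730) or 16 (0.0753) of Naive_KO.

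**Figure D3:**
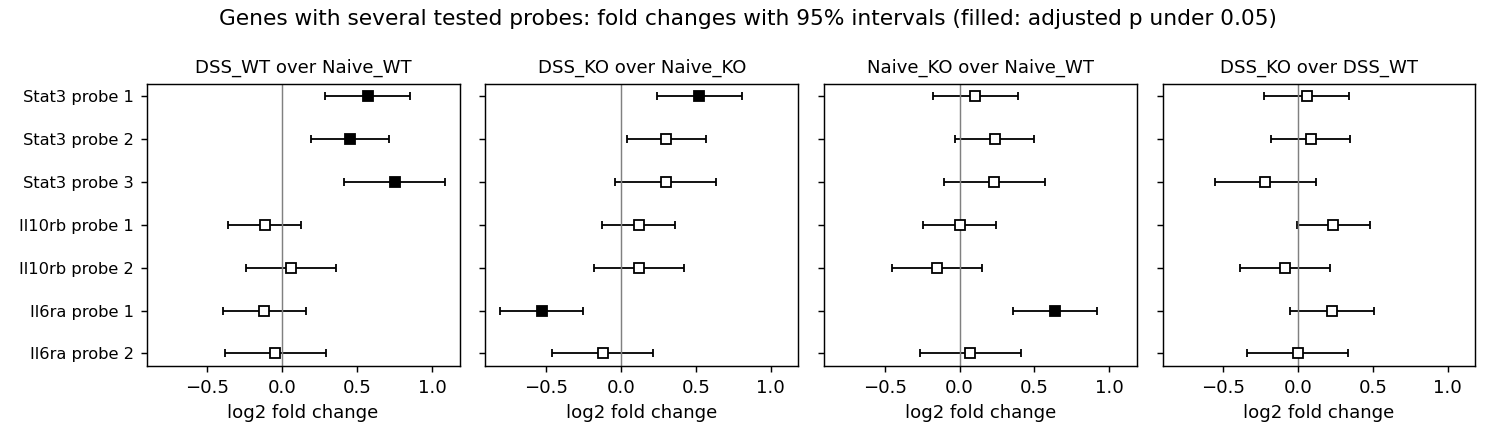
Log2 fold change (x axis) with its 95% interval for every tested probe of the genes with several, in 4 comparisons; filled squares have an adjusted p under 0.05. The 3 Stat3 probes rise together in WT with DSS, and Il6ra probe 1 has filled squares in Mbd2KO with DSS and between naive genotypes, where Il6ra probe 2, close to background, has open ones.

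Il6st, which encodes gp130, had log2 signals of 7.27, 7.36, 7.37 and 7.37 in Naive_WT and of 7.76, 7.99, 8.11 and 8.13 in DSS_WT. In Naive_KO they were 6.89, 7.32, 7.34 and 7.39, and in DSS_KO 7.37, 7.43, 7.76 and 7.97. All DSS_WT samples thus lay above all naive samples, while 1 DSS_KO sample lay within the naive range. Il6st rose by 0.65 in WT (SE 0.145, adjusted p = 0.00993), and its value in Mbd2KO was 0.40 (SE 0.145, adjusted p = 0.0986), which passed the looser rule with array weights (0.52, adjusted p = 0.0195) and with median scaling (0.70, adjusted p = 0.0303). The difference between these effects was -0.26 (95% interval -0.69 to 0.18, adjusted p = 0.707). The median sum of the fibroblast markers was 7786 in DSS_WT and 5270 in DSS_KO, and that of the myeloid markers 3512 and 4926. The part of these cells in the values of Il6st was not tested. A second Il6st probe was detected on no array.

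Bcl3, the NF-kB cofactor, had log2 signals of 8.37, 8.48, 8.69 and 8.78 in Naive_WT and of 8.85, 9.08, 9.40 and 9.44 in DSS_WT. The Naive_KO samples stood at 7.50, 8.76, 9.00 and 9.20 and the DSS_KO samples at 9.25, 9.43, 9.43 and 9.64. Neither genotype had naive and DSS samples that overlapped, but 1 Naive_KO sample, replicate 15, lay far below the others. The log2 fold change was 0.61 in WT (SE 0.268, adjusted p = 0.156) and 0.82 in Mbd2KO (SE 0.268, adjusted p = 0.0641), and neither passed in the fit as described. With median scaling both passed the looser rule, at 0.99 in WT (adjusted p = 0.0173) and 1.17 in Mbd2KO (adjusted p = 0.00771). That in WT also passed with only the groups compared in the fit (adjusted p = 0.0437), and that in Mbd2KO with repeat arrays separate (adjusted p = 0.0366) or array weights (adjusted p = 0.0323). Without replicate 15 the value in Mbd2KO was 0.45 (adjusted p = 0.104) and the adjusted p in WT 0.0167, and without replicate 13 it was 1.02 (adjusted p = 0.0246).

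The chains that bind IL-22 did not pass the test with DSS, apart from Il10rb under 1 alternative. Il10rb was detected on all 18 arrays, at log2 signals of 8.89 to 9.33 in Naive_WT, 8.98 to 9.31 in Naive_KO, 8.96 to 9.16 in DSS_WT and 9.12 to 9.37 in DSS_KO. Its log2 fold change with DSS was -0.12 in WT (95% interval -0.36 to 0.13) and 0.12 in Mbd2KO (95% interval -0.13 to 0.36), and when arrays were scaled to a common median these became 0.29 in WT and 0.50 in Mbd2KO (adjusted p = 0.0345), where that scaling moved the median of all tested probes by 0.25. Il10rb probe 2, detected on 9 of 18 arrays, differed by 0.06 with DSS in WT (95% interval -0.24 to 0.36) and by -0.09 between the genotypes with DSS (95% interval -0.39 to 0.21), where probe 1 differed by 0.23 (95% interval -0.01 to 0.48). It was detected on no Naive_KO array, so no fold is given against that group. Il22ra1 was close to background, detected on 0 of 4 arrays in Naive_WT, 1 of 4 in Naive_KO, 2 of 5 in DSS_WT and 1 of 5 in DSS_KO. Its mean log2 signal was 4.66 in Naive_WT and 4.90 in DSS_WT, and 4.75 in Naive_KO and 4.86 in DSS_KO, and no fold is given because these values lie within background. The only probe of Il22 itself was detected on no array.

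Il6ra, the chain that binds IL-6, differed between untreated genotypes by its probe 1. Il6ra probe 1 had log2 signals of 4.91, 4.99, 5.06 and 5.07 in Naive_WT and of 5.46, 5.57, 5.77 and 5.78 in Naive_KO. With DSS the values were 4.61, 4.76, 5.03 and 5.15 in WT and 4.98, 5.02, 5.07 and 5.39 in Mbd2KO. The 4 Naive_KO samples were thus above all 12 others. Il6ra was 0.64 higher on the log2 scale in Naive_KO than in Naive_WT (SE 0.133, adjusted p = 0.0128), a 1.56-fold difference, and it fell by 0.53 with DSS in Mbd2KO (SE 0.133, adjusted p = 0.0190). In WT the change with DSS was -0.12 (adjusted p = 0.612). The 11 myeloid markers had a median log2 fold change of 0.69 in Naive_KO against Naive_WT, with 9 above 0 (10937 of all 21938 probes were). Of the 11, 1 passed the looser rule by limma (5.19% of all probes) and 6 had an unadjusted p under 0.05 (22.8%). In 0 of 11 were the groups fully separate (12.3% of all probes). The part of myeloid cells in the Il6ra difference was not tested. The difference between the DSS effects was -0.41 (95% interval -0.81 to -0.02, unadjusted p = 0.0425) and did not pass the adjustment (adjusted p = 0.444).

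These Il6ra values were low, with probe 1 detected on 3 of 4 arrays in Naive_WT, 4 of 4 in Naive_KO, 3 of 5 in DSS_WT and 5 of 5 in DSS_KO. Probe 1 averaged 5.01 in Naive_WT, where the lowest signal that counts as above background was 4.90. Il6ra probe 2 lies elsewhere in the transcript and was detected on 4 of 18 arrays. Its log2 fold change in Naive_KO against Naive_WT was 0.07 (adjusted p = 0.832 by limma). Probe 2 lay within background in both naive groups (mean log2 signals 4.82 and 4.89), so it neither shows nor excludes a difference. The remaining probe was detected on no array. The adjusted p of Il6ra in Naive_KO against Naive_WT was 0.0571 for the mean of both tested probes (log2 fold change 0.35) and 0.0694 with median scaling (0.52). Without background correction the difference was 0.19 and the fall with DSS in Mbd2KO -0.16, and the stricter filter dropped the probe. The fall in Mbd2KO lost the looser threshold with median scaling (adjusted p = 0.0815), for the mean of both probes (0.0606), and without replicate 5 (0.0506), 6 (0.0529) or 8 (0.0664) of DSS_KO or replicate 16 of Naive_KO (0.0617).

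The effect of Mbd2 loss was the question of the study. In the fit as described Il6ra, by its probe 1, was the only gene of the 8 for which a genotype comparison passed. Il6st with DSS also passed the looser rule when repeat arrays were kept as separate replicates (-0.43, adjusted p = 0.0375). Without DSS, no gene was called by limma (0.656% of all probes were), and 1 passed the looser rule, higher in Naive_KO, against 5.19% of all probes in either direction and 2.43% higher. This gene was also the only one with an unadjusted p under 0.05 (22.8% of all probes) and with groups that did not overlap (12.3%). With DSS, 0 of 8 were called by limma (0.862% of all probes), 0 of 8 passed the looser rule (5.63%), 0 of 8 did not overlap (14.7%) and 1 of 8, Il6st, had an unadjusted p under 0.05 (22.2%). In DSS_KO against DSS_WT, Il6st had a log2 fold change of -0.36 (95% interval -0.67 to -0.06, unadjusted p = 0.0233, adjusted p = 0.150). Between the same groups, 3 of 10 fibroblast, 5 of 7 endothelial and 5 of 5 smooth muscle markers were lower in DSS_KO at the looser rule, and their part in the value of Il6st was not tested. The 95% intervals with DSS were -0.36 to 0.28 for Socs3, -0.23 to 0.34 for Stat3 and -0.49 to 0.21 for Osmr, so that differences of 2-fold lay outside all of them. No gene of the 8 had an interaction between genotype and DSS that passed: 0 were called or under an adjusted p of 0.05 by limma, as over all probes (0%), and 1, Il6ra, had an unadjusted p under 0.05 against 10.7% of all probes.

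**Figure D4:**
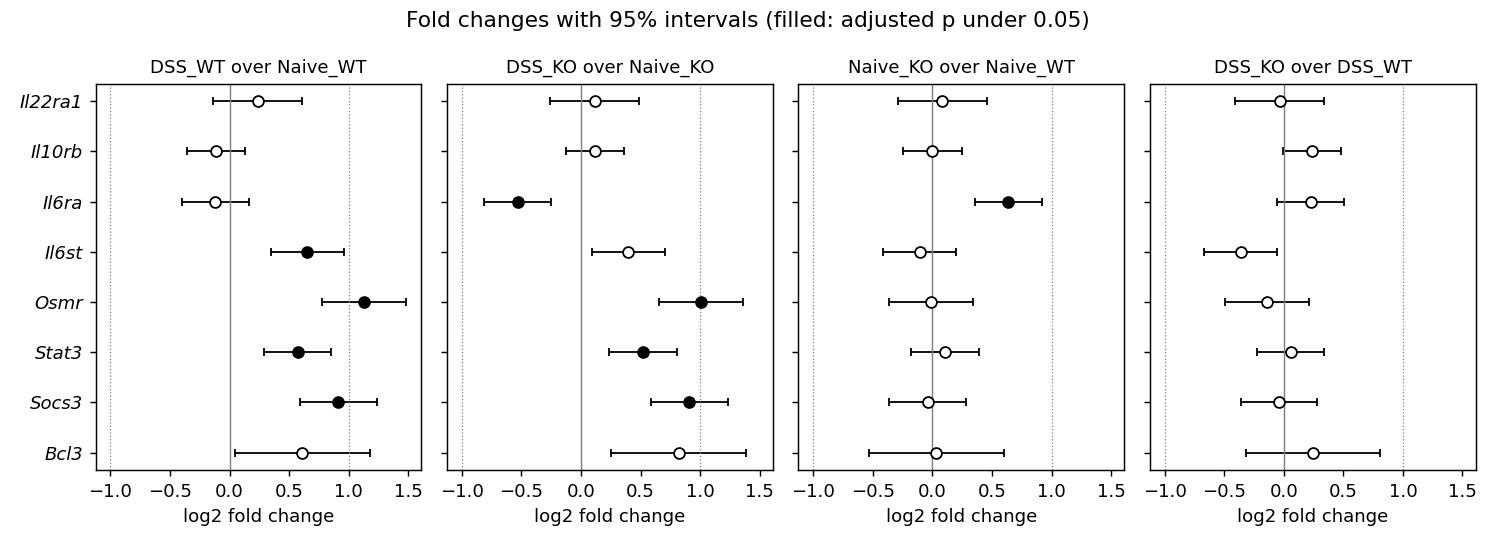
Log2 fold change (x axis) with its 95% interval for the 8 genes in 4 comparisons; filled points have an adjusted p under 0.05 and dotted lines mark a 2-fold difference. Il22ra1 was not well above background in Naive_WT, and barely detected elsewhere, so its points are differences within background. With DSS, Osmr, Socs3 and Stat3 lie right of 0 in each genotype, while among the genotype comparisons Il6ra without DSS is the only filled point.

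The 6 pairs among Stat3, Socs3, Osmr and Il6st were positively correlated over the 16 samples. Pearson's r was 0.97 for Socs3 and Osmr (Spearman's rho 0.91), 0.85 for Stat3 and Socs3 (0.79), 0.83 for Il6st and Osmr (0.88), 0.82 for Stat3 and Osmr (0.73), 0.80 for Socs3 and Il6st (0.88) and 0.70 for Stat3 and Il6st (0.71), values that describe samples sharing the DSS treatment and the array. The tested genes most like Osmr over the 16 samples, out of 15756, were Cxcl2 (0.97), a neutrophil chemokine, Socs3 (0.97) and Olfml3 (0.97), and those most like Socs3 were Bcl2a1b (0.98), LOC638301 (0.98) and Serpina3n (0.98). Stat3 came closest to Eif1a (0.96), Ino80c (0.94) and Mtrex (0.93), and Il6st to Plau (0.94), the urokinase gene, Col4a2 (0.93) and Cyp7b1 (0.93). For Bcl3 these were Gfm (0.94), Mrps18b (0.92) and Akt1s1 (0.91), and for Il6ra Cog1 (0.92), LOC384842 (0.91) and mtDNA_ND4 (0.90). The nearest genes to Il10rb were Prkcz2 (0.82), Mal (0.77) and LOC237459 (0.77), and to Il22ra1 Gm12816 (0.74), Col28a1 (0.73) and Olfr1394 (0.73), all lower values. The signals of Il22ra1 lay within background and those of Il6ra were low, so their nearest genes are not read as co-expressed.

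The surrounding pathway was described with 6 lists of 106 genes in all, of which 90 were tested. DSS called 10 of them in WT (against 1.74% of all probes) and 10 in Mbd2KO (1.72%), all higher, and the ligands and the Stat3 targets held most. At the looser rule 31 passed in WT (29 higher and 2 lower, against 10.5% of all probes) and 26 in Mbd2KO (22 higher and 4 lower, against 9.42%). The count in WT fell to 5 without replicate 3 and to 6 without replicate 4 of DSS_WT, and that in Mbd2KO to 6 without replicate 5 and to 5 without replicate 8 of DSS_KO, and to 4 without replicate 14 and to 6 without replicate 15 of Naive_KO. The myeloid and fibroblast marker sums given above moved with these genes, and their part was not tested.

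**Figure D5:**
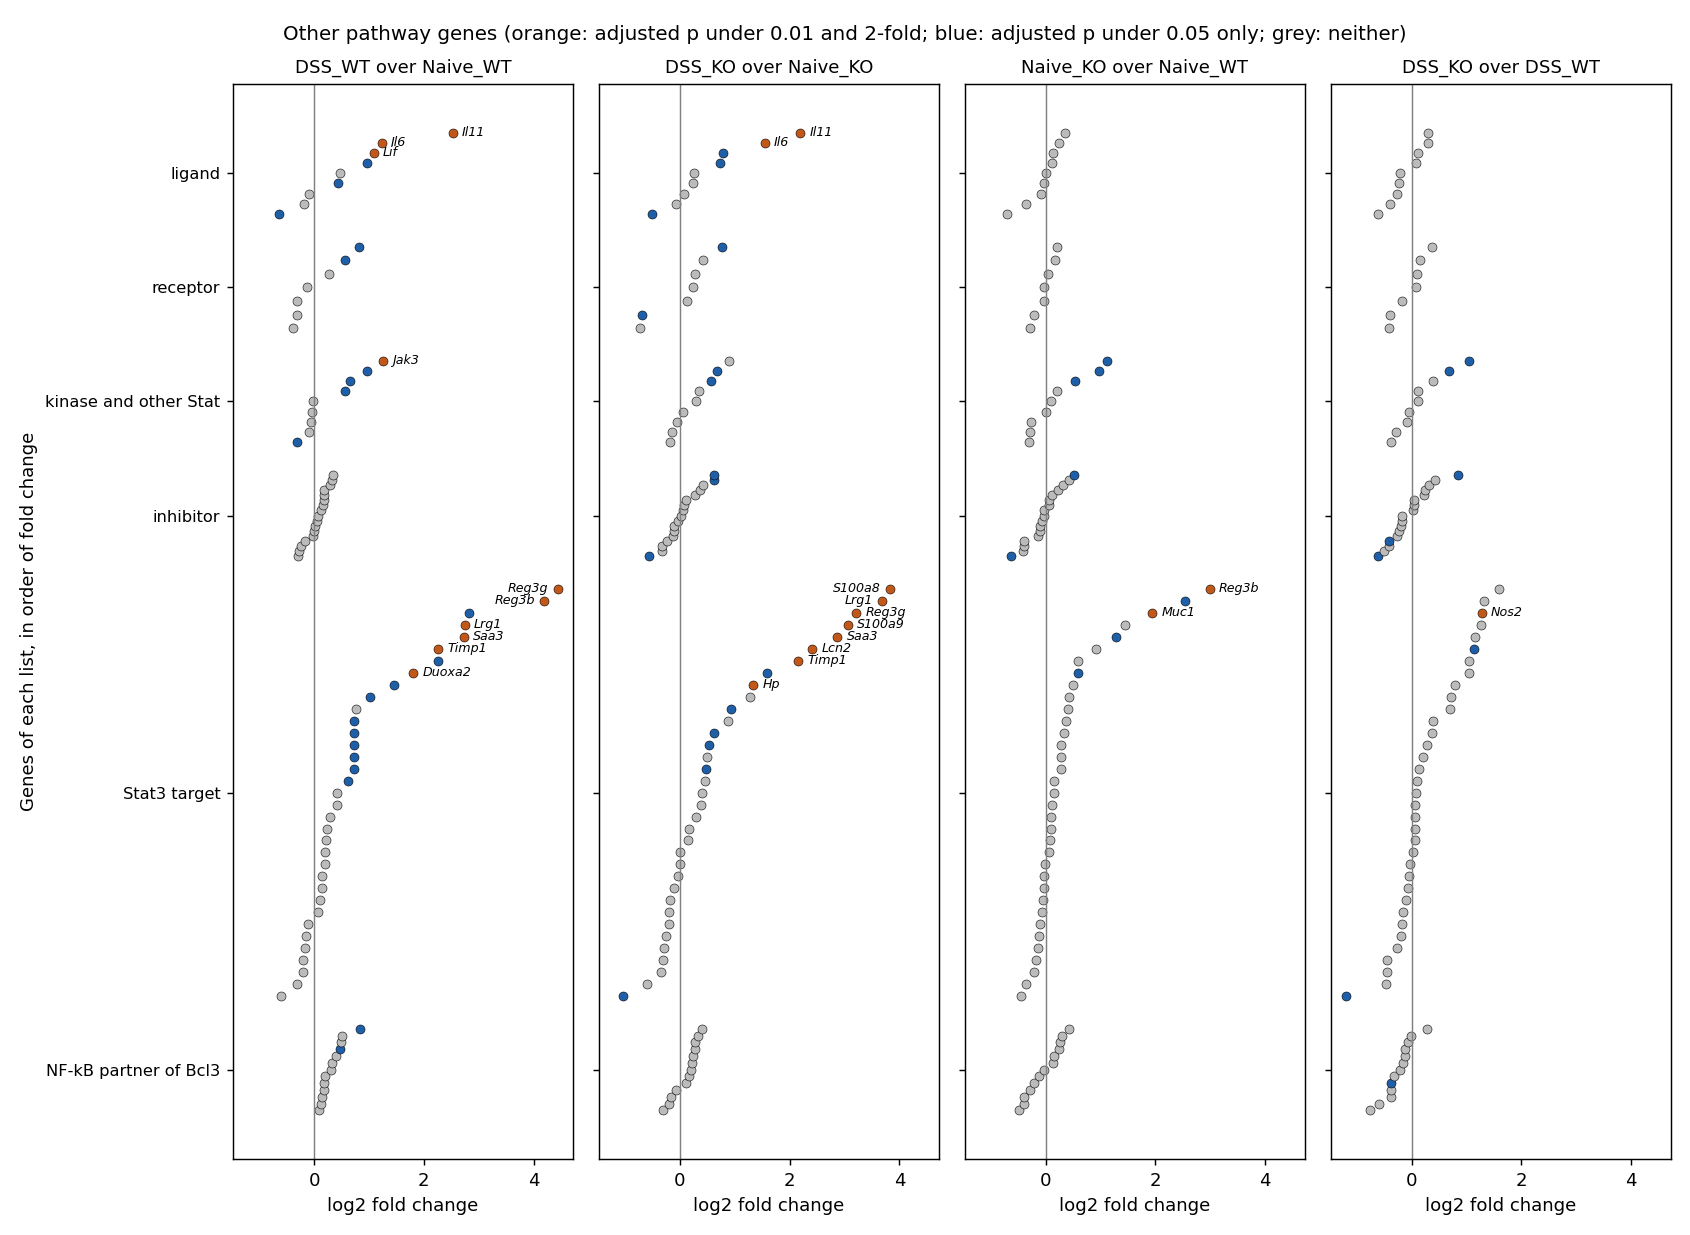
Log2 fold change (x axis) of the 90 tested pathway genes in 6 lists (y axis, ordered by fold change within each list) in 4 comparisons; orange points were called, blue points had an adjusted p under 0.05 only, and grey points neither. Called genes are mostly ligands and Stat3 targets in the comparisons with DSS.

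Several listed ligands rose with DSS, among them Il11 and Il6, which signal through gp130. Il11, a stromal cytokine of the family, was 2.53 higher on the log2 scale in DSS_WT than in Naive_WT (SE 0.339, adjusted p = 0.000464) and 2.20 higher in DSS_KO than in Naive_KO (adjusted p = 0.00109). Il6 rose by 1.23 in WT (adjusted p = 0.00238) and 1.55 in Mbd2KO (adjusted p = 0.000643). Lif, leukaemia inhibitory factor, rose by 1.09 in WT (adjusted p = 0.00353) and had a value of 0.24 in Mbd2KO (adjusted p = 0.518), a difference between genotypes of -0.85 (unadjusted p = 0.00947, adjusted p = 0.293). Of 9 tested ligands, 6 passed the looser rule in WT (5 higher and 1 lower, against 10.5% of all probes) and 5 in Mbd2KO (4 higher and 1 lower, against 9.42%), with list medians of 0.48 and 0.26. Between genotypes no ligand was called or passed the looser rule by limma, 2 of 9 had an unadjusted p under 0.05 with DSS (against 22.2% of all probes) and 2 of 9 without (22.8%), and the smallest p belonged to Lif with DSS (-0.61, adjusted p = 0.0915) and to Il6 without (-0.71, adjusted p = 0.0702). Osm, the ligand of Osmr, was named after its values were seen. It was detected on 0 of 4 Naive_KO and 5 of 5 DSS_KO arrays and was at least 1.53-fold higher in DSS_KO (adjusted p = 0.00693). In WT it was detected on 1 of 4 Naive_WT and 5 of 5 DSS_WT arrays, with mean log2 signals of 4.82 and 5.30 (adjusted p = 0.0666), and the DSS effects were not shown to differ between genotypes (adjusted p = 0.690 for the interaction). The bound sets the DSS_KO mean against the lowest signal that counts as above background.

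Among the other receptor chains no gene was called by limma. Of 7 tested, 2 passed the looser rule in WT (against 10.5% of all probes) and 2 in Mbd2KO (9.42%), while 4 and 4 had an unadjusted p under 0.05 (26.3% and 24.5%). Il20rb, a chain of the IL-20 receptors, was 0.57 higher with DSS in WT (adjusted p = 0.0133), and Il11ra1, the IL-11 receptor, fell by 0.69 in Mbd2KO (adjusted p = 0.00340). In DSS_KO against DSS_WT the smallest p was that of Il11ra1, at -0.41 (adjusted p = 0.0680), and in Naive_KO against Naive_WT that of Il27ra (adjusted p = 0.317), which was not well above background in Naive_KO. Of the 7, 3 and 0 had an unadjusted p under 0.05 in these, against 22.2% and 22.8% of all probes. Of the kinases and other Stat factors, Jak3, which serves receptors with the common gamma chain, rose by 1.26 in WT (adjusted p = 0.000287) and was the 1 called gene of 9 tested, of which 5 passed the looser rule (4 higher and 1 lower, against 10.5% of all probes). In Mbd2KO no gene of that list was called by limma, 2 passed the looser rule (against 9.42%), 4 had an unadjusted p under 0.05 (24.5%), and Jak3 stood 0.68 higher (adjusted p = 0.00922). The difference of the Jak3 effects was -0.58 (unadjusted p = 0.0125, adjusted p = 0.316).

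Of the kinases and other Stat factors, Stat2 had the smallest p between genotypes, and other genes of the list passed the looser rule too. The largest log2 fold changes of the list were 1.12 without DSS and 1.04 with DSS, above those of Stat2. Stat2, which acts in the type I interferon response, was 0.97 higher in Naive_KO than in Naive_WT (adjusted p = 0.00539) and 0.69 higher in DSS_KO than in DSS_WT (adjusted p = 0.0293). In the first of these 3 of 9 genes of the list passed the looser rule (against 5.19% of all probes), in the second 2 of 9 (5.63%), all higher and none called by limma. An unadjusted p under 0.05 was found for 4 of 9 in each (22.8% and 22.2% of all probes). Stat3 itself differed by 0.10 (95% interval -0.18 to 0.39) and 0.06 (95% interval -0.23 to 0.34). Whether Stat2 and Stat3 differed from each other in this was not tested.

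Of 17 tested inhibitors other than Socs3, 0 were called by limma in any comparison, and 3 to 7 had an unadjusted p under 0.05, against 10.7% to 26.3% of all probes. With DSS, 0 passed the looser rule in WT (10.5% of all probes did), where 3 had an unadjusted p under 0.05 and Pias3 the smallest (0.32, adjusted p = 0.0615). In Mbd2KO 3 passed it (9.42% of all probes), with the smallest p for Ptpn6 at 0.63 (adjusted p = 0.0130). Ptpn6, the phosphatase SHP-1, was also 0.85 higher in DSS_KO than in DSS_WT (adjusted p = 0.00372), where 3 of 17 passed the looser rule (against 5.63% of all probes). Socs2, a relative of Socs3, was lower in Naive_KO than in Naive_WT, at -0.63 on the log2 scale (adjusted p = 0.0196). Of 17, 2 passed in this comparison, and the other (5.19% of all probes passed) was Ptpn6, 0.52 higher in Naive_KO (adjusted p = 0.0477).

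Of 35 tested genes known as Stat3 targets, 6 were called with DSS in WT (against 1.74% of all probes) and 8 in Mbd2KO (1.72%), all higher. Reg3g and Reg3b, antimicrobial lectins, rose by 4.44 (SE 0.551, adjusted p = 0.000318) and 4.19 (SE 0.479, adjusted p = 0.000245) in WT, and Lrg1, a secreted glycoprotein of the acute phase, by 2.75 (SE 0.524, adjusted p = 0.00372). In Mbd2KO, Lrg1 rose by 3.68 (adjusted p = 0.000647) and Reg3g by 3.21 (adjusted p = 0.00220), while the value of Reg3b was 1.28 (adjusted p = 0.105). S100a8, a subunit of calprotectin that neutrophils hold in abundance, was also called in Mbd2KO (adjusted p = 0.00322), but with detection on 1 of 4 Naive_KO arrays its fitted fold has no rank among these. It was detected on 0 of 4 Naive_WT arrays and was at least 5.27-fold higher in DSS_WT than in Naive_WT (adjusted p = 0.0173). The list medians were 0.41 in WT and 0.40 in Mbd2KO, and 16 and 14 of the 35 passed the looser rule, against 10.5% and 9.42% of all probes (16 higher in WT, 13 higher and 1 lower in Mbd2KO). Summed neutrophil markers, of which 3 of 10 were tested, were 76.2 to 92.5 in Naive_WT, 92.1 to 129 in Naive_KO, 119 to 157 in DSS_WT and 138 to 444 in DSS_KO, and Cxcr2, Mmp8 and Ngp were detected on no array.

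Some targets were higher in untreated Mbd2KO epithelium, while Socs3 and Stat3 did not pass there. Reg3b was 2.99 higher in Naive_KO than in Naive_WT (SE 0.479, adjusted p = 0.00229) and Muc1, a membrane mucin, 1.95 higher (SE 0.252, adjusted p = 0.000470); these were the 2 called genes of 35, and 5 passed the looser rule. Over all 90 pathway genes 2 were called (0.656% of all probes) and 10 passed the looser rule (5.19%), and the number called was 1 without replicate 10 of Naive_WT, 4 without replicate 11 of Naive_WT and 5 without replicate 16 of Naive_KO. With DSS, Nos2, inducible nitric oxide synthase, was the 1 called gene in DSS_KO against DSS_WT (adjusted p = 0.00301), detected on 0 of 5 DSS_WT arrays and 5 of 5 DSS_KO arrays and at least 1.91-fold higher in DSS_KO. No pathway gene was called without replicate 2 or replicate 4 of DSS_WT, and 2 were without replicate 6 of DSS_KO. The interaction of Reg3b was -2.91 (unadjusted p = 0.000509, adjusted p = 0.199), and no pathway gene had an interaction that passed by limma, with 19 of 90 under an unadjusted p of 0.05, against 10.7% of all probes. The smallest p of the other lists belonged to Lif and Jak3, given above, and to Cish (-0.52, adjusted p = 0.270), Nfkb1 (-0.39, adjusted p = 0.343) and Il20ra (0.58, adjusted p = 0.307). The median sum of the myeloid markers was 1523 in Naive_WT and 2764 in Naive_KO, and 3 of 4 Naive_KO samples lay above all Naive_WT samples. Of the 11 genes, 6 had an unadjusted p under 0.05 (22.8% of all probes) and 1 passed the looser rule (5.19%). The median sum of 3 tested B and plasma cell markers was 149 in Naive_WT (110 to 196) and 315 in Naive_KO (121 to 417). Of these 3, 1, Mzb1, had an unadjusted p under 0.05 (22.8% of all probes) and 0 passed the looser rule. The part of myeloid, B and plasma cells in the higher Reg3b and Muc1 was not tested.

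The 13 NF-kB genes listed with Bcl3 had no called gene in any comparison by limma, with 2 to 5 under an unadjusted p of 0.05, against 10.7% to 26.3% of all probes. With DSS in WT all 13 had positive values with a median of 0.31, against 10659 of all 21938 probes. Of the 13, 2 passed the looser rule (10.5% of all probes) and 5 had an unadjusted p under 0.05 (26.3%). Nfkbie, an IkB protein, had the smallest p at 0.85 (SE 0.168, adjusted p = 0.00485). In Mbd2KO 9 of 13 had positive values with DSS (10441 of all 21938 probes did), with a median of 0.20. Of the 13, 0 passed the looser rule (9.42% of all probes) and 3 had an unadjusted p under 0.05 (24.5%). The smallest p was that of Chuk, at -0.31 (adjusted p = 0.118). In DSS_KO against DSS_WT 12 of 13 had negative values with a median of -0.20, against 11079 of all 21938 probes. The 1 that passed the looser rule (5.63% of all probes did) was Ikbkg, lower with a log2 fold change of -0.37 (adjusted p = 0.0491). Nfkbiz differed by 0.43 between the naive groups (adjusted p = 0.0818).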

How the data were processed

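Colon epithelial RNA of 16 samples was hybridized to 18 arrays. Per the file headers, the deposited value of a probe is the average intensity of its beads, exported with normalization set to none (format version 1.1.1) and no background subtraction; the deposited detection p-value is the share of negative controls brighter than the probe. The submitters' processing notes name lumi and limma, whose output was not used here. The neqc function (limma 3.58.1, R 4.3.3, offset 16) then subtracted background estimated from 936 negative controls and applied quantile normalization, which leaves values in log2 units. Probes with a detection p under 0.05 on at least 4 arrays were tested, 21938 probes of 15757 genes. Arrays 4R and 5R differed less from 4 and 5 (SD of log2 differences 0.194 and 0.236) than other pairs of their groups did (0.287 or more), and each pair was averaged. The labels do not say what the letter means.

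All 16 samples entered a single limma fit of the 4 group means (12 residual degrees of freedom, two-sided tests), and p-values were adjusted by the Benjamini-Hochberg method over all tested probes within a contrast. The labels do not tie replicates to single animals, so p-values measure the spread between these samples, which may in part be technical. P-values of single genes are from limma, and intervals are 95%. The number of arrays limits the precision. The script was tested on simulated data. The genes, the lists and the alternatives were chosen with earlier results of these data known. Named pathway genes are the 3 called genes with the largest change per list and contrast, or the 1 with the smallest p where none was called; for likeness, the 3 genes with the highest Pearson correlation were named. A bound ("at least") was used where a probe was detected on no array of a group. Symbols were updated through Entrez identifiers in RefSeq (GRCm38.p6; 29586 probes matched). The first 30 bases of probes come from the deposited table and promoters from RefSeq.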

Additional observations from a re-analysis of the deposited data

Results flagged for a closer look

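In groups of 4 samples, a sample stood apart when its gap to the nearest other sample took up more of the group's range than Dixon's critical value at the 95% level. This held in 3 of the 48 groups looked at (12 tested probes in 4 groups), and chance flags about 1 group in 20. Il6st was lowest in replicate 9 of Naive_WT (7.27, nearest 7.36, ratio 0.911), in a group whose whole spread was small, and in replicate 14 of Naive_KO (6.89, nearest 7.32, ratio 0.861). Osmr was lowest in replicate 1 of DSS_WT (7.41, nearest 7.67, ratio 0.883), which was still above every naive sample. Without these samples the log2 fold change of Il6st with DSS was 0.63 in WT and 0.28 in Mbd2KO, and that of Osmr in WT was 1.20.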

How the results depend on the processing

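The alternatives changed the background correction, scaling, probe filter, repeat arrays, samples in the fit, array weights, probe choice, call rule or left out 1 sample. Of 1022 recomputed fold changes of the 8 genes, 956 kept their direction and side of the threshold, 46 changed sign, 12 newly passed and 8 no longer did. The looser call rule is among these alternatives and leaves every fold change as it was, so passes it adds come from the rule alone. No paired analysis was possible because the groups share no replicate numbers. Scaling to a common median moved the median of all tested probes by 0.25 with DSS, and calls in WT went from 382 (294 higher, 88 lower) to 660 (625 higher, 35 lower), those in Mbd2KO from 377 (235, 142) to 721 (630, 91), and those between genotypes with DSS from 189 (110, 79) to 260 (109, 151) and without from 144 (88, 56) to 125 (67, 58). Without background correction these 4 counts were 84, 113, 48 and 54. They were 298, 273, 188 and 39 with only the groups compared in the fit, and 256, 227, 86 and 90 with no filter. With repeat arrays kept separate they were 508, 523, 420 and 190. The shares over all probes move with single samples as well: calls in WT fell to 233 and 248 without replicates 4 and 3 of DSS_WT, and in Mbd2KO to 181 and 237 without replicates 14 and 16 of Naive_KO and 186 and 194 without replicates 8 and 5 of DSS_KO. Between genotypes with DSS they fell to 46 and 93 without replicates 5 and 8 of DSS_KO and 54 and 108 without replicates 2 and 4 of DSS_WT, and without DSS they were 73 without replicate 10 of Naive_WT and 83 and 279 without replicates 15 and 16 of Naive_KO.

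Genes of the 8 called with DSS in WT numbered 0 without background correction, 2 with median scaling and 4 at an adjusted p under 0.05, and 1 to 2 with 1 sample left out. In Mbd2KO they numbered 0 without background correction, 3 with median scaling, 0 with only the groups compared in the fit and 4 at the looser rule, and 0 to 2 with 1 sample left out; without DSS, 1 differed between genotypes at the looser rule. Pathway genes with DSS in WT numbered 6, 21 and 31 (no background correction, median scaling, looser rule; 5 to 12 leaving out 1 sample), and in Mbd2KO 5 without background correction, 5 with no filter, 6 with only the groups compared and 26 at the looser rule (4 to 11). Between genotypes with DSS they were 0 without background correction, with the stricter filter or with only the groups compared, 2 with median scaling or the mean of probes, 3 with repeats kept separate or array weights and 9 at the looser rule (0 to 2), and without DSS 1 with only the groups compared or the mean of probes and 10 at the looser rule (1 to 5).

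The signs that turned belonged to values that had not passed, and those of Il22ra1 are differences within background. Between naive genotypes these were Osmr (0.0020 without background correction, 0.030 with array weights), Il10rb (-0.082 with median scaling, -0.0064 with weights, -0.075 for the mean of probes) and Bcl3 (-0.050 with median scaling). With DSS they were Stat3 between genotypes (-0.060 with median scaling, -0.027 for the mean of probes) and Il10rb in WT (0.29 with median scaling), and the interaction of Socs3 was 0.028 with repeats separate. Leaving out 1 sample, the naive genotype difference ran from -0.16 to 0.41 for Bcl3, -0.085 to 0.060 for Il10rb, -0.029 to 0.16 for Il22ra1, -0.16 to 0.0072 for Il6st, -0.20 to 0.069 for Osmr and -0.17 to 0.051 for Socs3. The interaction ran from -0.16 to 0.41 for Bcl3, -0.21 to 0.056 for Osmr, -0.093 to 0.13 for Socs3 and -0.13 to 0.053 for Stat3. The DSS effect in Mbd2KO ran from -0.051 to 0.23 for Il22ra1, and the genotype difference with DSS from -0.20 to 0.070 for Il22ra1 and -0.12 to 0.038 for Socs3. The causes were not tested. Signal over background limits Il22ra1 and Il6ra, which the stricter filter removed.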
